A study of Rattus norvegicus with 352 samples.

Results

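Libraries of whole brain hemispheres were sorted by the level of Rpl32, a protein of the large ribosomal subunit, and the 86 libraries with the highest level were set against the 86 with the lowest. The other 170 libraries lay between them. The groups were chosen by the measured level of Rpl32 alone. The level of a gene is log2(CPM + 1), where CPM is its estimated count scaled to a library total of 1000000, and the high libraries are the top 25% and the low libraries the bottom 25% of that level. All samples are frozen brain hemispheres from untreated, naive rats of the heterogeneous stock, which is an outbred population. The sources used here state neither age nor sex of an animal, so high and low differ by nothing that the labels name. A further 10 samples named in the labels were not analysed here. Library totals ran from 5418230 to 42980793 estimated counts (median 21881769), and each library is taken as 1 rat. Because Rpl32 chose the libraries, its own level is a description with no test; all other genes were compared across the same 86 and 86 libraries, and a call says that the difference of the group means was large against its standard error. With 86 libraries a group, a called difference can be smaller than the SD within the groups.

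Cytosolic ribosomes consist of a small and a large subunit, each built on ribosomal RNA with a fixed set of proteins, most of which are encoded by single active genes and needed in equal amounts. Messenger RNAs of these proteins are short, abundant and begin with a terminal oligopyrimidine tract (TOP), a stretch of C and T letters at the cap through which the mTOR pathway and the RNA-binding protein Larp1 set their translation and stability. The respiratory chain and ATP synthase of mitochondria are likewise large assemblies with many small nuclear-encoded subunits. In brain, both groups of messengers are present in all cell types and also in neuronal processes, away from the cell body.

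The start sites of ribosomal protein genes are shown because they are a sequence feature that the choice of libraries did not use. Each line gives 15 bases before and 15 bases from the annotated start site on, from RefSeq on the assembly GRCr8, 5′ to 3′ on the strand of the gene, and capitals mark the part inside this window of the longest run of C and T letters found from 20 bases before to 20 bases past the start. The windows of Rpl38 and Pclo lie inside the gene spans given below, so their start sites are not the outer ends of those spans. The first 5 genes have a run of at least 8 letters; Rpl41, the respiratory gene Ndufa3 and Pclo, which codes for a very large protein, do not, and the longest run of Pclo lies before the window, so it has no capitals.
Rpl37a (chr9:81748076-81748105, plus strand): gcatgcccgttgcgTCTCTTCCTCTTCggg
Rps23 (chr2:23814502-23814531, plus strand): tgggtccttcctgCCTCTCTTCTCTCTTTC
Rpl38 (chr10:100200420-100200449, plus strand): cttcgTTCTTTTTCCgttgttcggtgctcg
Rpl10 (chrX:157205835-157205864, plus strand): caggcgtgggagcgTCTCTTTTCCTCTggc
Rpl35 (chr3:43165907-43165936, minus strand): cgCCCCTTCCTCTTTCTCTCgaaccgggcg
Rpl41 (chr7:1563483-1563512, minus strand): ggcggCTCggaagtgacgacaccaagcacg
Ndufa3 (chr1:74515544-74515573, minus strand): cccagagagCTCCCTgctcttgtccaagac
Pclo (chr4:21005097-21005126, minus strand): gggctgctccagcgctgaggaggcaacccg
A run of at least 8 C or T letters on the gene's own strand was found in 28 of 38 large-subunit and 18 of 25 small-subunit genes with a sequence in the table, that is in 73.7% and 72%, against 15.6% of all 27457 promoters. Translation factors and other genes known for TOP messengers had it in 10 of 15, mitochondrial ribosomal proteins in 6 of 36, respiratory chain and ATP synthase genes in 9 of 70, and genes of very large proteins in 8 of 39. A match is a description of these letters and not a mapped cap site. Rpl10 and Rpl35 were picked for the lines above outside the naming rule given below.

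Rpl32 (chromosome 4, 150536650 to 150540214 on GRCr8) stood between 7.12 and 7.38 in the high libraries (median 7.17) and between 6.50 and 6.99 in the low ones (median 6.94). These values chose the groups. Their means of 7.19 ± 0.058 and 6.92 ± 0.069 (SD, n = 86 each) lie 1.20-fold apart. The library just inside the high group and the one just outside it were at 7.12136 and 7.12118, and those at the lower border at 6.99234 and 6.99351. The low group has 1 library at 6.50 whose nearest neighbour is at 6.75; without it the medians of large-subunit and small-subunit genes given below were 0.16 and 0.15. The library highest in Rpl32 (7.38) had the lowest Rps23 (6.99) and Cox7c (6.19) of the high group. It also had the highest Rps29 (7.28), Pclo (8.60) and Zbtb20 (7.60) of that group, so these ends of the ranges below rest on 1 library.

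Ribosomal protein messengers were higher with Rpl32 and ribosomal RNA was not past the test. Of 78 other cytosolic ribosomal protein genes, 75 were higher in the high libraries, 1 was lower and 2 did not pass the test (limma, Benjamini-Hochberg adjusted p under 0.05 over all 16682 genes tested). Across those genes 24% were called higher and 24% lower (48% in either direction), and the median difference of all genes was -0.0028 on the log2 scale. In no gene were the levels of the groups fully apart (0.0% of those tested). With a difference of at least 0.1 also asked for, 43 of 46 large-subunit and 29 of 32 small-subunit genes were higher, against 6.01% of all genes tested. The 78 genes together took a median of 1.17% of the counts in the high libraries (range of their summed level 10633 to 13694 CPM) and 1.06% in the low ones (8920 to 11322 CPM). Ribosomal protein genes have many near-identical copies, and the sources used here do not state how reads were divided between them, so single values of this family are uncertain.

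**Figure D1:**
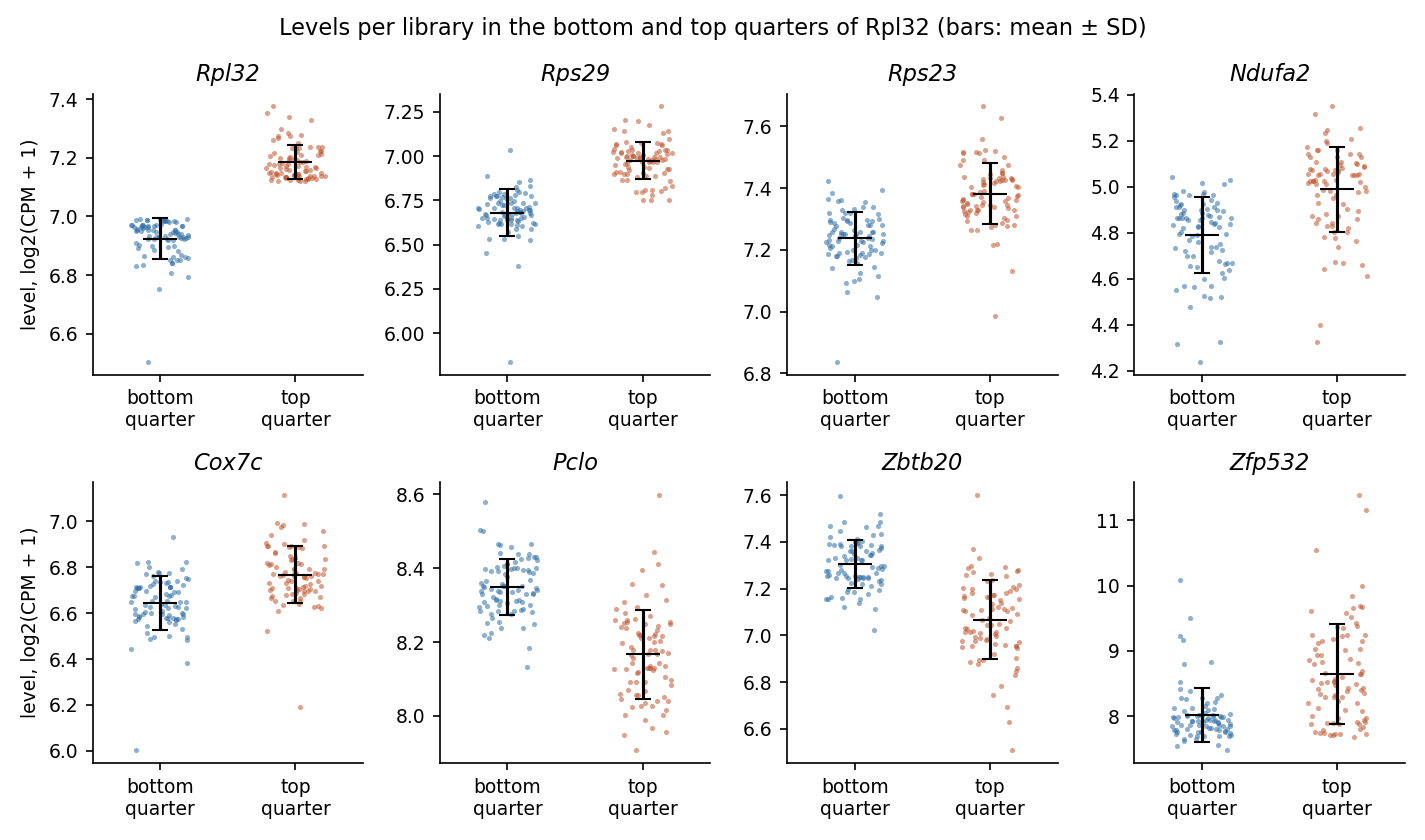
Level, as log2(CPM + 1), of 8 genes in each of the 86 low (lowest 25%) and 86 high (highest 25%) libraries, with mean and SD as black bars; each panel has its own vertical axis. Rps29 had all high libraries above 6.75 and a low median of 6.69, while Rps23, Ndufa2 and Cox7c overlapped widely and Pclo and Zbtb20 lay lower in the high libraries.

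Among large-subunit genes, 44 of 46 were higher, against 24% of all genes called higher, none was lower, and the list median was 0.16. Rpl38 (chromosome 10, 100200414 to 100204070) stood at 5.55 to 6.19 in the high libraries (median 5.77) and at 4.55 to 5.73 in the low ones (median 5.52). All 86 high libraries exceeded the low median, and the difference was 0.26 ± 0.019 (SE; limma adjusted p = 4.12e-26). Rpl37a showed the same picture at a higher level, 7.05 to 7.51 (median 7.19) against 6.35 to 7.12 (median 6.96), a difference of 0.25 ± 0.013 (limma adjusted p = 9.57e-39). Rpl41, whose product is the smallest ribosomal protein, differed by 0.24 ± 0.014, and the stalk protein gene Rplp1 by 0.20 ± 0.013. The 2 genes that did not pass were Rpl12, another stalk protein (0.050 ± 0.045, limma adjusted p = 0.374), and Rpl30 (0.12 ± 0.082, limma adjusted p = 0.223), named here after its value was seen. Both had a wide spread within the groups, with Rpl30 between 4.93 and 6.46 in the low libraries and between 5.0 and 6.75 in the high ones.

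Among small-subunit genes, 31 of 32 were higher, against 24% of all genes called higher, with a list median of 0.15. Rps29, a zinc-binding protein of the small subunit (chromosome 6, 93371293 to 93372731), had the largest difference of the ribosomal lists. It ranged from 6.75 to 7.28 in the high libraries (median 6.98) and from 5.84 to 7.03 in the low ones (median 6.69), all 86 high libraries lay above the low median, and the difference of 0.29 ± 0.018 is a 1.23-fold change (limma adjusted p = 1.71e-33). Rps19, known for its mutation in Diamond-Blackfan anaemia, differed by 0.23 ± 0.011 (6.78 to 7.13 against 6.30 to 6.91, limma adjusted p = 5.78e-43), and Rps26 by 0.22 ± 0.014. Rps25 differed by as much, 0.22, but with an SE of 0.053. Rps23, which forms part of the decoding centre (chromosome 2, 23814517 to 23816087), stood at 6.99 to 7.67 in the high libraries (median 7.38) and at 6.84 to 7.42 in the low ones (median 7.25). Its groups overlapped, 82 of 86 high libraries exceeded the low median, and the difference was 0.14 ± 0.014 (limma adjusted p = 5.04e-18). Rps20 was the 1 gene of the family that was lower, by -0.10 ± 0.034 (limma adjusted p = 0.0075), at a level of 1.92 to 2.97 (median 2.65) in the high and 2.16 to 3.34 (median 2.69) in the low libraries, far under the other small-subunit genes named here. Between the highest and lowest 10% of libraries Rps20 did not pass (-0.054, limma adjusted p = 0.402). Its copy Rps20-ps11, named after its value was seen, had a mean level of 6.34 in the high and 6.13 in the low libraries and was higher by 0.22 ± 0.012 (limma adjusted p = 1.24e-38).

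Ribosomal protein genes with and without the C and T run at the start site overlapped in their differences. The 46 with the run had a median difference of 0.16 (0.095 to 0.26) and the 17 without it 0.14 (0.050 to 0.24). Genes with names like those of ribosomal protein gene copies, taken by name after the values were seen, were mixed. Against 24% of all genes called higher and 24% lower, 10 of 33 were higher and 4 were lower. The other 19 did not pass, and the median was 0.036. Rpl15l3 (0.29 ± 0.042) and Rpl37l1 (0.23 ± 0.017) were among the higher ones.

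Other parts of the translation machinery were higher in smaller numbers. Counts here stand against 24% of all genes called higher and 24% lower. Of 20 translation factors and other genes known for TOP messengers, 14 were higher and none was lower, with a median of 0.083. The initiation factor subunit genes Eif3k (0.16 ± 0.011) and Eif3f (0.12 ± 0.0092), the ribosome-bound scaffold gene Rack1 (0.13 ± 0.010) and the translationally controlled tumour protein gene Tpt1 (0.13 ± 0.020) led this list. Ribosome biogenesis factors had 13 of 24 higher and 2 lower around a median of 0.037, led by Nop10 (0.15 ± 0.014), a small core protein of the H/ACA particles that modify ribosomal RNA. Of 16 genes of the mTOR pathway and of TOP messenger control, 4 were higher and 7 lower: the mTORC2 subunit gene Rictor differed by -0.12 ± 0.013, the mTOR inhibitor gene Deptor by -0.062 ± 0.014, and the translation repressor gene Eif4ebp1 by 0.11 ± 0.027, each past the test. The call of Eif4ebp1 was lost between the highest and lowest 10% of libraries (0.081, limma adjusted p = 0.118) and that of Deptor with groups chosen by Cox7c (-0.025, limma adjusted p = 0.187). Ribosomal RNA itself had none of 4 genes past the test, with Rn28s at -0.10 ± 0.062 (limma adjusted p = 0.172) and Rn18s at -0.10 ± 0.13 (limma adjusted p = 0.55). With groups chosen by Rps23 in place of Rpl32, both were higher and past the test, Rn28s by 0.27 (limma adjusted p = 9.97e-05) and Rn18s by 0.38 (limma adjusted p = 0.0248). Ribosomal RNA left after polyA enrichment is no measure of ribosome number.

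Mitochondrial ribosomal proteins, made by a separate gene set, were higher in 41 of 44 tested genes, with none lower and a median of 0.11. This count stands against 24% of all genes called higher and 24% lower. Mrpl27 (0.17 ± 0.016), Mrpl52 (0.17 ± 0.017), Mrpl23 (0.16 ± 0.016) and Mrpl54 (0.15 ± 0.017) had the largest differences.

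Of 79 nuclear genes of the respiratory chain and ATP synthase, 78 were higher, 1 was lower and none failed the test. The shares over all genes tested were 24% higher and 24% lower. Complex I, which takes electrons from NADH, had 36 of 37 subunit genes higher with a median of 0.13. Ndufa3 stood at 4.99 to 5.53 in the high libraries (median 5.23) and at 4.21 to 5.27 in the low ones (median 5.02), a difference of 0.21 ± 0.019 (limma adjusted p = 9.94e-20). Ndufb7 (0.20 ± 0.016) and Ndufa11 (0.19 ± 0.014), both small accessory subunits, were higher too. Ndufa2 (chromosome 18, 28629795 to 28631884), another accessory subunit, ranged from 4.33 to 5.35 (median 5.03) against 4.24 to 5.04 (median 4.84); the groups overlapped, 70 of 86 high libraries exceeded the low median, and the difference was 0.20 ± 0.026 (limma adjusted p = 4.42e-11). The catalytic core gene Ndufs1 was the only member in the other direction, at -0.021 ± 0.0087 (limma adjusted p = 0.0333). That call was lost with the identifier block as a covariate (Ndufs1 at -0.017, limma adjusted p = 0.107) and in the highest and lowest 10% of libraries (-0.0016, limma adjusted p = 0.934).

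Counts in this paragraph also stand against 24% of all genes called higher. Cytochrome c oxidase, the last complex of the chain, had all 11 subunit genes higher with a median of 0.16. Cox8a (0.20 ± 0.014), Cox6b1 (0.19 ± 0.013) and Cox7a2 (0.18 ± 0.015) led. Cox7c (chromosome 2, 18577145 to 18579170) stood at 6.19 to 7.12 in the high libraries (median 6.76) and at 6.0 to 6.93 in the low ones (median 6.65), with 78 of 86 high libraries over the low median and a difference of 0.12 ± 0.018 (limma adjusted p = 1.91e-09). All 17 ATP synthase genes were higher, from Atp5f1e (0.24 ± 0.018) down to the stator gene Atp5pb (0.036 ± 0.011). All 14 genes of complexes II and III and of cytochrome c were higher, from the small subunit gene Uqcr10 (0.19 ± 0.016) down to Sdha (0.028 ± 0.0076), the flavoprotein of succinate dehydrogenase. Ndufs1 and Sdha had the lowest differences of their lists.

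Genes of other small proteins, taken from unrelated functions, were mostly higher. Of 46, 43 were higher and none was lower, against 24% of all genes called higher and 24% lower. The list median was 0.14. Examples were the copper chaperone gene Atox1 (0.22 ± 0.016), Bola2 (0.21 ± 0.016), which acts in iron-sulphur handling, the RNA polymerase subunit gene Polr2l (0.20 ± 0.018) and the mitochondrial import gene Timm13 (0.19 ± 0.015). Of 30 proteasome genes 25 were higher, with a smaller median of 0.085, led by Psmb6 (0.16 ± 0.013) and Psma7 (0.16 ± 0.0093). Dpm3, a small subunit of dolichol phosphate mannose synthase, differed by 0.25 ± 0.022. Bc1, a short noncoding RNA of dendrites made by RNA polymerase III, rose from a median of 5.24 (3.45 to 5.76) to 5.55 (5.03 to 6.73), a difference of 0.33 ± 0.043 (limma adjusted p = 1.42e-11).

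Genes of very large proteins were lower. Of 50 listed, 47 were lower and none was higher, against 24% of all genes called lower and 24% higher. The median of these 50 was -0.11. A difference of at least 0.1 was reached by 35 of them, against 7.44% of all genes tested. Pclo, a scaffold of the presynaptic active zone (chromosome 4, 20646604 to 21005171), stood at 7.91 to 8.60 in the high libraries (median 8.17) and at 8.13 to 8.58 in the low ones (median 8.35). Only 6 of 86 high libraries exceeded the low median, and the difference was -0.18 ± 0.015 (limma adjusted p = 2.12e-22). The calcium channel gene Cacna1e (-0.17 ± 0.017), the lipid transfer gene Vps13c (-0.17 ± 0.021) and the histone methyltransferase gene Kmt2c (-0.17 ± 0.017) were next in size. Summed, the 50 genes ranged from 12006 to 16462 CPM in the high and from 13746 to 16018 CPM in the low libraries.

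**Figure D2:**
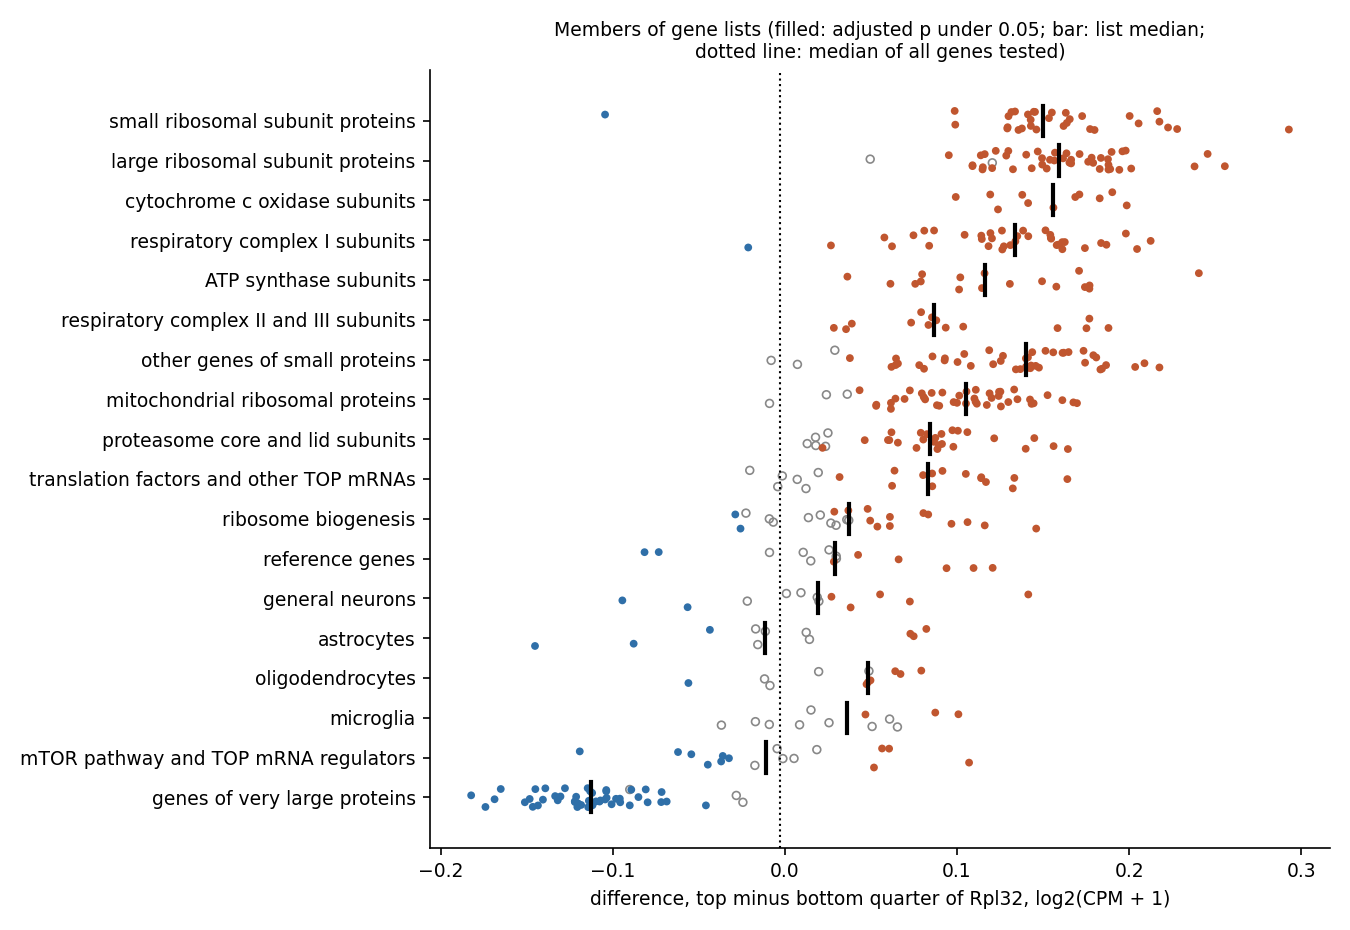
Difference of each list member between high and low libraries (horizontal axis, log2), with filled points past the test, open points not past it and black bars for list medians; the dotted line is the median of all genes. Ribosomal, respiratory and other small-protein lists lie to the right of the line and genes of very large proteins to the left, while lists of cell types straddle it.

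Genes outside the lists were also lower. Zbtb20, a transcription factor of hippocampus and glia (chromosome 11, 70558010 to 71297039), stood at 6.51 to 7.60 (median 7.07) in the high libraries and at 7.02 to 7.60 (median 7.30) in the low ones. Just 3 of 86 high libraries exceeded the low median, and the difference was -0.24 ± 0.021 (limma adjusted p = 2.17e-20). The calcium-stimulated adenylyl cyclase gene Adcy1 (chromosome 14, 86125119 to 86234459) differed by -0.25 ± 0.026, with 7.18 to 8.19 (median 7.86) against 7.72 to 8.28 (median 8.09). Xkr6 (-0.26 ± 0.031), the GABA-B receptor auxiliary subunit gene Kctd16 (-0.25 ± 0.026), the Wnt receptor gene Fzd3 (-0.25 ± 0.029) and the decapping enzyme gene Dcp2 (-0.24 ± 0.025) were also among the 12 lowest of the genes past the test with a mean level of 3 or more and a proper name. In Zbtb20, Adcy1, Pclo, Xkr6 and Kctd16 the SD was larger among the high libraries, for example 0.22 against 0.11 for Adcy1.

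Called genes differed in their extent along the chromosome. The span from start to end, introns included, had a median of 11478 bases in the 4006 genes called higher, of 57727 bases in the 3997 called lower and of 23480 bases in all tested genes. Protein-coding genes were split by span into 10 bins of about equal size. In the shortest bin (up to 4497 bases) 53.8% were called higher and 4.22% lower, and in the longest (145227 bases and more) 5.72% were higher and 56.7% lower. The bin medians fell at every step, from 0.065 to -0.050. Without the ribosomal, translation factor, respiratory, proteasome and other small-protein lists the same bins had medians of 0.058 and -0.050, so genes outside those lists showed the gradient too. Long noncoding RNA made up 1.45% of the genes called higher, 16.5% of those called lower and 11.5% of all tested. Span is not transcript length, which was not used here, and the part of transcript length, RNA integrity or fragment selection in these differences was not tested.

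**Figure D3:**
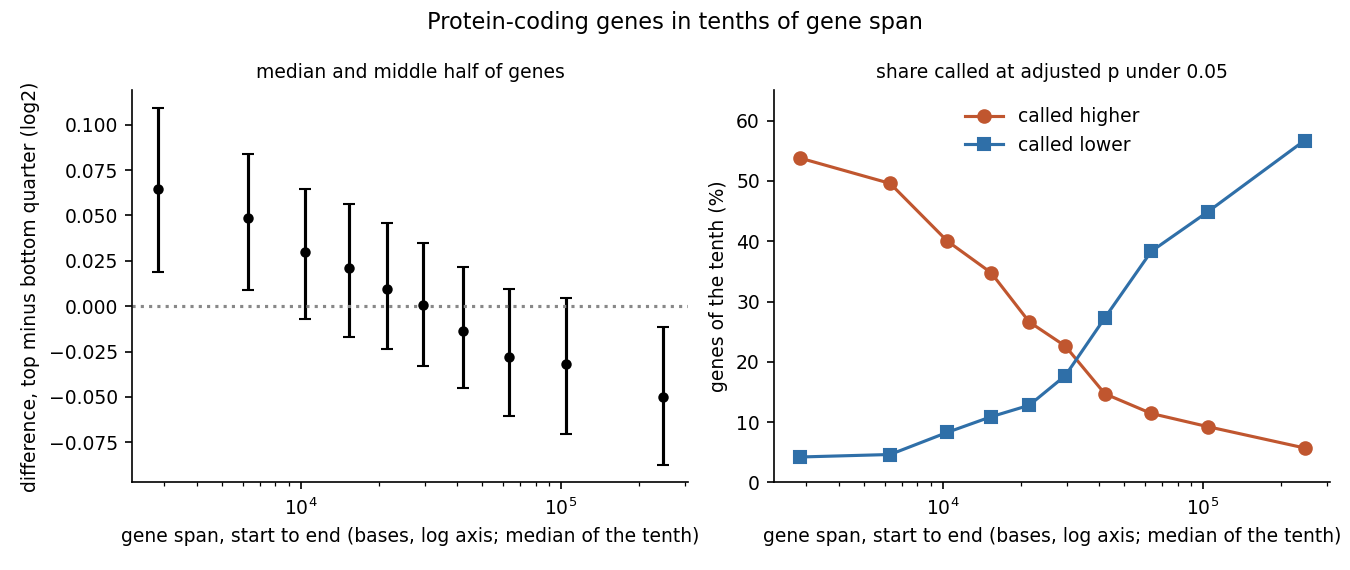
Protein-coding genes in 10 bins of gene span (log axis, bases). The left panel gives the median difference between high and low libraries with the middle 50% of genes, which passes from 0.065 to -0.050; the right panel gives the share called higher (falling from 53.8% to 5.72%) and lower (rising from 4.22% to 56.7%).

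Markers of cell types went in both directions, and the medians of the lists named here lay between -0.030 and 0.051. Single markers differed by more. Across all genes tested, 24% were called higher and 24% lower. Of 12 general neuronal genes 5 were higher and 2 lower: the deubiquitinase gene Uchl1 differed by 0.14 ± 0.011 and the microtubule gene Map2 by -0.094 ± 0.011. Their summed level ran from 9958 to 11199 CPM in the high and from 10128 to 10902 CPM in the low libraries. Among inhibitory neuron genes the somatostatin gene Sst was higher (0.17 ± 0.016) and Reln, coding for a very large secreted protein, lower (-0.16 ± 0.023). Astrocyte genes had 3 of 11 higher and 3 lower, with the glutamate transporter gene Slc1a2 at -0.15 ± 0.015 and S100b at 0.082 ± 0.014; summed they ran from 5902 to 7477 CPM against 6226 to 7768 CPM. Oligodendrocyte genes had 6 of 11 higher and 1 lower (summed 10783 to 15495 against 10660 to 17734 CPM), microglial genes 3 of 12 higher, and endothelial and pericyte genes 1 of 11. In bulk tissue, fewer cells of a type and less RNA per cell cannot be told apart.

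Genes of regional and boundary tissues were also called on both sides, against 24% of all genes called higher and 24% lower. Cerebellar genes had 5 of 10 lower and 1 higher, with the granule cell gene Cbln3 at -0.16 ± 0.033 and Gabra6 at -0.086 ± 0.030, and their summed level ran from 845 to 1470 CPM in the high and from 919 to 1555 CPM in the low libraries. Meningeal and fibroblast genes had 3 of 9 lower, among them Col1a2 (-0.13 ± 0.045), summed 186.25 to 480.5 against 258.2 to 544.26 CPM. The choroid plexus carrier gene Ttr was higher by 0.23 ± 0.039 (8.48 to 9.82 against 8.48 to 9.61), but only 2 of 10 choroid plexus genes were (summed 733 to 1524 against 741.6 to 1393 CPM). Of 7 ependymal genes 4 were higher, led by Spag6l (0.18 ± 0.052), with a summed level of 52.1 to 77.1 against 51.8 to 75.3 CPM. None of these lists had a member at 0 in any library. The hypothalamic peptide genes Cartpt and Oxt were among the 12 largest higher differences, and no list of such genes was drawn up. Cartpt differed by 0.31 ± 0.052 (2.07 to 4.08, median 3.53, against 2.45 to 3.86, median 3.18) and the oxytocin gene Oxt by 0.27 ± 0.063. Pmch (0.23 ± 0.038) and Avp (0.23 ± 0.051), looked at after these values were seen, lay in the same direction. With groups chosen by Cox7c in place of Rpl32, none of these 4 peptide genes passed: Cartpt was at 0.038 (limma adjusted p = 0.618), Oxt at 0.063 (limma adjusted p = 0.515), Pmch at 0.12 (limma adjusted p = 0.103) and Avp at 0.10 (limma adjusted p = 0.192). Ttr was then at 0.056 (limma adjusted p = 0.326), and the calls of Gabra6, Col1a2 and Spag6l were each lost under at least 2 alternatives. With scores of 6 cell types as covariates the medians of large-subunit and small-subunit genes were 0.14 and 0.13.

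Against 24% of all genes called higher and 24% called lower, lists of activity and stress genes varied. Of 12 immediate early genes 1 was higher, Ier2 (0.14 ± 0.058), and not past the test without the libraries of fewest genes (0.12, limma adjusted p = 0.0828); Arc stood at 0.16 ± 0.10 (limma adjusted p = 0.209). None of 10 glucocorticoid-responsive genes passed. Of 11 heat shock genes 4 were higher, with the small heat shock gene Hspb1 at 0.21 ± 0.052 and the mitochondrial co-chaperone gene Hspe1 at 0.14 ± 0.016. The call of Hspb1 was lost between the highest and lowest 10% of libraries (0.17, limma adjusted p = 0.105) and with groups chosen by Cox7c (0.096, limma adjusted p = 0.154). Integrated stress response genes had 7 of 13 higher and 2 lower, with Ddit3 at 0.13 ± 0.021, Atf4 at 0.089 ± 0.012 and the cystine transporter gene Slc7a11 at -0.16 ± 0.029. Of 14 reference genes used to scale other measurements, 6 were higher and 2 lower; Ppia differed by 0.11 ± 0.0100 and Gapdh by 0.094 ± 0.0087.

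The single largest difference past the test among genes with a level of at least 3 and a proper name was in Zfp532, a zinc finger gene (chromosome 18, 61350084 to 61473653). It ran from 7.69 to 11.4 in the high libraries (median 8.52) and from 7.47 to 10.1 in the low ones (median 7.93), with 67 of 86 high libraries over the low median. The groups overlapped over most of their range and the difference was 0.62 ± 0.092, or 1.54-fold (limma adjusted p = 2.60e-09). Over all genes tested the extremes were the sex-linked Xist (1.21 ± 0.68, limma adjusted p = 0.133) and Ddx3y (-0.96 ± 0.46, limma adjusted p = 0.0744), neither past the test. The spread of Zfp532 among the high libraries (SD 0.77) was wider than among the low ones (SD 0.41).

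The 170 libraries between the groups did not enter the differences between high and low libraries chosen by Rpl32, and there each gene was fitted with a slope on the level of Rpl32, in log2 units per log2 unit. Of all genes, 4.6% had a positive and 3.62% a negative slope past the test. Of large-subunit genes 36 of 46 and of small-subunit genes 22 of 32 had a positive slope, none a negative one, with medians of 0.66 and 0.59. Complex I had 29 of 37 positive, cytochrome c oxidase 8 of 11, mitochondrial ribosomal proteins 11 of 44 and other small proteins 28 of 46. Genes of very large proteins had 23 of 50 negative and none positive, with a median of -0.47. Single genes with large differences were divided here: Rps29 had a slope of 1.58 (limma adjusted p = 2.76e-13), Ndufa2 1.25 (0.0042) and Zbtb20 -1.29 (1.61e-05), whereas Rps23 (0.42, limma adjusted p = 0.0604) and Cox7c (0.50, limma adjusted p = 0.0533) did not pass in these libraries. Nor did Cartpt (0.26, limma adjusted p = 0.909), Oxt (0.43, limma adjusted p = 0.876), Ttr (0.35, limma adjusted p = 0.799), Kctd16 (-0.36, limma adjusted p = 0.587), Fzd3 (-0.77, limma adjusted p = 0.175) and Xkr6 (-1.11, limma adjusted p = 0.0528).

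**Figure D4:**
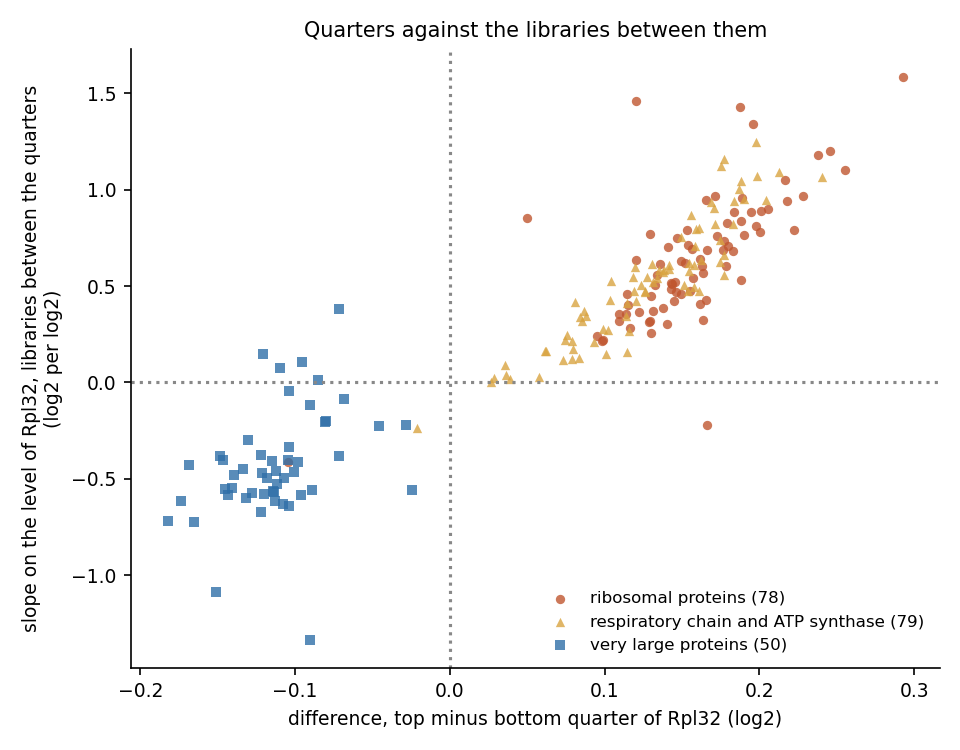
Slope on the level of Rpl32 in the 170 libraries between the groups (vertical axis, log2 per log2) against the difference between high and low libraries (horizontal axis, log2) for 78 ribosomal protein, 79 respiratory and 50 very large protein genes. Ribosomal and respiratory genes lie mostly at upper right, with medians of 0.66 and 0.59 for large and small ribosomal subunits, and very large proteins mostly at lower left, median -0.47.

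Properties of the libraries differed between the groups as well. High libraries had fewer genes above 0 (26072 ± 792 against 26442 ± 476, SD, n = 86 each; two-sided permutation test with 100000 permutations, adjusted p = 0.00042 over 3 tests) and totals that were 7.05% lower on average (permutation adjusted p = 0.048). The 17 libraries with the fewest genes included 8 high and no low ones, and without them the difference in genes was -184 (permutation adjusted p = 0.0598) and that in totals -1.89% (0.513). The share of Rn18s and Rn28s, 0.128% against 0.139%, did not differ past the test (permutation adjusted p = 0.13), though with groups chosen by Rps23 it was 24.4% higher (permutation adjusted p = 0.00015). Of 4 nuclear noncoding RNAs tested, 1 was lower, against 24% of all genes called lower, and the list median was -0.10. Meg3 was among the 3 that did not pass (7.47 to 9.49, median 8.61, against 7.87 to 9.54, median 8.78, limma adjusted p = 0.074). Xist exceeded the Y-linked Ddx3y in 52 of 86 high and 39 of 86 low libraries (Fisher's exact test, two-sided, p = 0.0665). With the library total as a covariate, the medians of large-subunit and small-subunit genes were 0.16 and 0.15, and with the ribosomal RNA share and Meg3 0.15 and 0.14. The part of library properties in these differences was not tested.

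The labels name no batch, but library identifiers fall into blocks by their first 6 characters, and blocks did not enter both groups evenly. In block 3, 16.1% of libraries were high and 25.8% low, and in block 4, 30.3% and 25.5%. Over the 7 blocks of at least 8 libraries the high share ran from 7.69% to 38.9% and the low share from 11.1% to 38.5%. Within the 4 blocks with at least 8 libraries in each group, the median of large-subunit genes was 0.13 to 0.25, that of small-subunit genes 0.13 to 0.24, that of complex I 0.11 to 0.22 and that of very large proteins -0.19 to -0.077, so the direction was shared by all 4 blocks. Rps29 differed by 0.27 to 0.35 within blocks and Rps23 by 0.078 to 0.25, Cox7c by 0.024 to 0.27, and Meg3 by -0.36 to 0.12. Meningeal and cerebellar lists changed direction between blocks. The median of meningeal and fibroblast genes ran from -0.19 to 0.14, with Col1a2 from -0.30 to 0.20. That of cerebellar genes ran from -0.21 in block 5 to 0.019, with Gabra6 from -0.31 in block 5 to 0.025.

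**Figure D5:**
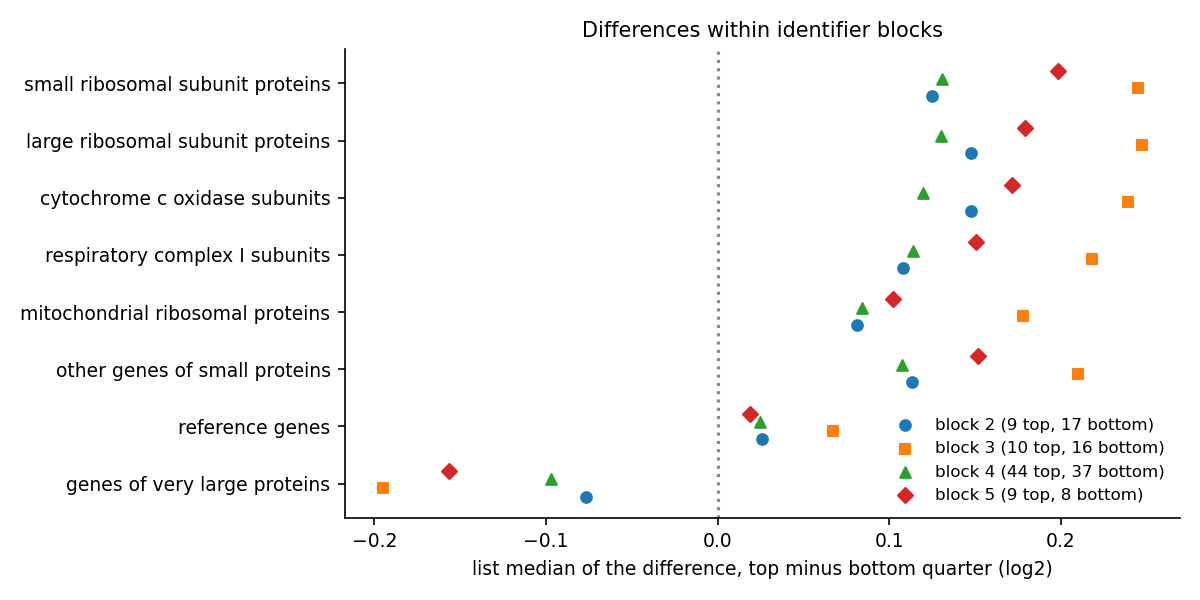
List medians of the difference between high and low libraries (log2), computed inside each of 4 identifier blocks, with the number of libraries in the key. Ribosomal and respiratory lists lie above 0 in each block and very large proteins under 0 (-0.19 to -0.077), with the reference genes near 0.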

How the data were processed

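RNA of whole brain hemispheres was measured in a single group of libraries. The labels' protocols name TRIzol extraction, polyA enrichment and directional libraries. The submitters' processing notes name kallisto, and the sources used here state neither its version nor its settings. The deposited table holds log2 values of estimated counts plus 1 made by the authors, not scaled for depth; of the values turned back to between 0.5 and 5, 63.2% lay within 0.002 of a whole number. Values were turned back, scaled to CPM and taken as log2(CPM + 1). Genes of mean level 1 or more were kept (16683), and the 16682 other than Rpl32 were tested. High and low libraries were compared with limma 3.58.1 in R 4.3.3 (empirical Bayes test with a mean-variance trend, no covariates), slopes were fitted in the libraries between them, and p-values were adjusted over all genes tested with 0.05 as the threshold. SE is the moderated standard error. The fits were first run on simulated data in which each gene was drawn independently and few genes changed. Here 48% of genes were called, so those simulations do not assess these calls. Differences on this scale understate the change of low genes.

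Of 38354 genes, 38278 matched RefSeq on GRCr8 by symbol, among them all genes kept. The highest correlation between libraries was 0.995, and none were merged. Libraries whose median correlation with the others lay more than 5 scaled median absolute deviations under the median were said to stand apart (4, of which 1 was high and none low). The labels do not spell out that each library is a separate rat, so p-values measure spread between libraries, which may be technical. The groups, gene lists and tests were chosen with earlier results of these data known, so list counts are not independent evidence, and no set test was run. The genes named are the 4 markers, genes among the 12 largest differences in each direction past the test (mean level 3 or more, with a proper name), and up to 4 members of each list by absolute difference, with the smallest and opposite ones for ribosomal and respiratory lists; other genes are said to be named after their values were seen. Rpl10 and Rpl35 are shown only for their start sites and were picked outside this rule. Of the listed genes, 26 were not tested. Alternatives covered the pseudocount (0.1), scaling, level minimum, covariates, libraries left out and the gene that chose the groups.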

Additional observations from a re-analysis of the deposited data

How the results depend on the processing

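Counts of 4006 genes higher and 3997 lower stayed within 1.5 times under every alternative run except one: with groups chosen by Cox7c, 2554 genes were lower (4458 higher). Groups chosen by Rps23 shared 42 high and 56 low libraries with those of Rpl32, and groups chosen by Cox7c 35 and 44. Of 1359 values of named genes under 15 alternatives, 1298 kept direction and side of the threshold, 32 were no longer past it, 21 came past it and 8 reversed. With groups chosen by Cox7c, Meg3 was at 0.17, Rn18s at 0.041, Rn28s at 0.085 and Spag6l at -0.050; with groups chosen by Rps23, Rn18s was at 0.38 and Rn28s at 0.27; with ribosomal RNA share and Meg3 as covariates, Rn18s was at 0.014; with Xist above Ddx3y as a covariate, Xist was at -0.16. Calls not named as lost elsewhere were lost for Rps25 (0.080), Sdha (0.0036) and Gapdh (0.016) with groups chosen by Cox7c, for Rpl15l3 (0.098) and Cbln3 (-0.12) with groups chosen by Rps23, and for Atp5pb (0.020) with cell type scores as covariates. The difference in library totals was no longer past the test without the libraries of fewest genes (-429518), in the highest and lowest 10% of Rpl32 (-1495410), with groups chosen by Rps23 (-315528) or Cox7c (-620586), and without the libraries that stand apart (-1593720, permutation adjusted p = 0.051). The difference in genes above 0 was no longer past it without the libraries of fewest genes (-184.2) and with groups chosen by Rps23 (-138.9) or Cox7c (-49.43). The ribosomal RNA share reversed with groups chosen by Rps23 (0.02996 percentage points, past the test with permutation adjusted p = 0.00015) and Cox7c (0.007311, adjusted p = 0.621). The cause of these changes was not tested. Leaving out libraries that stand apart or the one lowest in Rpl32, and the Xist covariate, were alternatives chosen after seeing the data. No paired analysis was possible because all samples form a single group and replicate numbers only name them.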
